A study of Homo sapiens with 16 samples.

Results

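H3K27ac, the acetylation of histone H3 that marks promoters and enhancers in use, was examined at the genes of 10 members of the BCL2 family, the proteins that decide whether mitochondria release death signals. The members were BCL2, BCL2L1, MCL1 and BCL2A1, which hold cell death back, the BH3-only members BCL2L11, BBC3, PMAIP1 and BID, and the effectors BAX and BAK1. A region was taken as a member when the annotation named 1 of these genes as its nearest and placed it at most 50000 bp from the transcription start site (TSS), which gave 68 of 151654 regions. Without the distance limit there were 121, and 36 of those left out belonged to BCL2. The rule itself used gene names and distances and no measured value.

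The cells were THP-1, a human monocytic leukemia cell line. WT cells carried Cas9 only according to the genotype label, while the treatment notes name a control guide RNA. USP18-/- cells were edited with CRISPR at USP18, which encodes a negative regulator of type I interferon signaling, and were grown from sorted single cells, so that genotype and clone cannot be told apart. Each genotype was left untreated or given IFNα at 1000 U/ml for 6 h, and each of the 4 groups had 2 ChIP-seq libraries from separate biological replicates. The question was how H3K27ac at the death regulators differed with IFN, with USP18 and with both together.

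Proteins of this family meet at the outer mitochondrial membrane. BAX and BAK1 form the pores through which cytochrome c leaves the mitochondria, and BCL2, BCL2L1 (BCL-xL), MCL1 and BCL2A1 bind and restrain them. BH3-only proteins such as BCL2L11 (BIM), BBC3 (PUMA), PMAIP1 (NOXA) and BID are raised or activated by stress and oppose the restraining members. Myeloid leukemia cells commonly depend on MCL1 or BCL2 for survival, and BCL2A1 is a known target of NF-κB in blood cells.

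The stretches below are shown because they lie in the regions on which the results turn, or in a region that carries a similar stretch and passed no call. Capitals mark a match to 1 of 4 motifs, and all stretches were read from hg38, 5′ to 3′ on the strand given. In BAK1 +1522, MCL1 +1022 and BID +2309 the capitals are an ISRE core, the element read by interferon-activated factors, searched as a pair of GAAA units 2 bases apart. In BBC3 -11526 they are a CHOP-ATF4 element (TGATGNAAT), in BCL2A1 -6315 an NF-κB site and in PMAIP1 -14074 an AP-1 site (TGANTCA). Only the match named is in capitals, and some windows hold further matches. The stretch of BCL2A1 -6315 also holds an AP-1 match in lowercase, 3 bp from the window center. In MCL1 +1022 an AP-1 match lies outside the stretch, 22 bp from the center, while the ISRE core lies 43 bp from it.
BAK1 +1522, minus strand, chr6:33578727-33578772: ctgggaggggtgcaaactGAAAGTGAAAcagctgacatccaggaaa
MCL1 +1022, minus strand, chr1:150578736-150578781: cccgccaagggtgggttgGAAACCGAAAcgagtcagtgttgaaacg
PMAIP1 -14074, plus strand, chr18:59885922-59885964: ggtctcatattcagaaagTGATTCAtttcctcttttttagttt
BID +2309, plus strand, chr22:17771699-17771744: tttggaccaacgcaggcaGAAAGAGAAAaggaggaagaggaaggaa
BBC3 -11526, minus strand, chr19:47244290-47244334: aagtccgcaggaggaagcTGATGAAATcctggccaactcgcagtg
BCL2A1 -6315, plus strand, chr15:79977599-79977644: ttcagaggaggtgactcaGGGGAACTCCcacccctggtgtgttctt

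Each region was a 1000 bp window around a merged ATAC-seq peak and is named here by its gene and the signed distance of its center from the nearest annotated TSS of that gene, negative upstream. Regions per gene numbered 9 for BCL2, 5 for BCL2L1, 4 for MCL1, 16 for BCL2A1, 7 for BCL2L11, 2 for BBC3, 15 for PMAIP1, 2 for BID, 3 for BAX and 5 for BAK1. Of the 68, 20 lay within 3000 bp of the TSS, and 15 overlapped another member window, so that some tags were counted more than once. Values are CPM, counts scaled to the TMM-adjusted library size, given as replicate 1 and replicate 2. All windows had 1 length, but levels were not corrected with the input libraries, so comparisons of level between regions are rough. One CPM stood for 9.68 to 11.5 counts depending on the library. Signal was under 3 CPM in every group mean for 22 regions and reached 20 CPM in at least 1 group for 19. At the distance limit, BCL2L11 +47781 lay just inside with 0.436 to 1.33 CPM over the libraries, and BCL2L11 +52116 just outside with 0.410 to 1.22 CPM.

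The WT libraries held 9046141 to 10291674.5 tags in all regions, and the USP18-/- libraries 10841826.5 to 12935453.5. These were 36.1% to 37.3% and 38.4% to 42.5% of all mapped tags. The TMM factors were 1.06 to 1.09 in WT and 0.880 to 0.977 in USP18-/- libraries. Depth and the share of tags in regions thus differed by genotype, which bears on comparisons between genotypes. In the check of the interferon response, the TSS regions of IFIT1 and ISG15 rose with IFN in both genotypes, and the TSS region of USP18 did so too. MX1 +157 rose by 2.93 in WT cells and gave 0.64 in USP18-/- cells (edgeR adjusted p = 0.34). H3K27ac at USP18 does not test the deletion itself. The 8 myeloid markers examined had TSS regions between 1.55 and 131 CPM, with CSF1R lowest at 1.55 to 3.27 CPM. Of 8 markers of other cell types, CD3D, GATA1, HBB and EPCAM had no region within 50000 bp, and the nearest regions of the other 4 held 0.495 to 9.48 CPM. A change in all cells and a change in a share of the cells cannot be told apart in these libraries.

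Differences were tested in 66 of the 68 regions, those with at least 10 counts in at least 2 libraries, and the 2 left out were BCL2A1 -44096 and PMAIP1 -34161. All adjusted p-values come from the quasi-likelihood test of edgeR, adjusted by the Benjamini-Hochberg method across the 123276 regions tested. A region was called higher or lower when its log2 fold change exceeded 1 in size and its adjusted p was under 0.05. The comparisons share libraries and are not independent of each other.

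IFN changed none of the 66 regions in WT cells by this rule, against 0.344% of all regions called higher and 0.0381% called lower. At an unadjusted p under 0.05 there were 6 of 66, beside 11054 of all 123276 tested regions, the smallest adjusted p by edgeR was 0.27, and DESeq2 called 0, giving no adjusted p to 26 of the 66. Before IFN, USP18-/- cells exceeded WT cells in 5 regions and were lower in 6, which is 7.58% and 9.09% of the members, beside 5.66% and 10.8% of all regions. With IFN in both genotypes, USP18-/- cells were higher in 12 and lower in 11 regions, or 18.2% and 16.7%, beside 11.3% and 13.4% of all regions. In USP18-/- cells, IFN raised 3 regions and lowered 0, or 4.55% and 0%, beside 7.14% and 4.28% of all regions. The IFN effect itself was greater in USP18-/- than in WT cells at 3 regions and smaller at 1. These are 4.55% and 1.52% of the members, beside 4.66% and 2.51% of all regions. Scaling by the sum of counts changed the split to 2 higher and 8 lower before IFN, to 6 higher and 14 lower between IFN treated genotypes, and to 3 higher and 1 lower for IFN in USP18-/- cells. That scaling moved the median log2 fold change of all tested regions to -0.16, -0.27 and -0.14 in these comparisons. Calls over all regions were not counted under it, so these splits have no background share.

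The 3 regions raised by IFN in USP18-/- cells belonged to BAK1, MCL1 and PMAIP1, that is to 1 effector, 1 restraining member and 1 BH3-only member. By role, the calls between IFN treated genotypes were 6 higher and 8 lower of 33 tested regions of restraining members, 5 higher and 2 lower of 25 of BH3-only members, and 1 higher and 1 lower of 8 of the effectors. In the same order these are 18.2% and 24.2%, 20% and 8%, and 12.5% and 12.5%, beside 11.3% and 13.4% of all regions. The roles were not matched for distance to the TSS. BCL2A1 alone gave 3 of the 6 higher and 5 of the 8 lower calls of restraining members, and 15 of their 33 tested regions. Some of its windows called lower overlap each other, so these shares do not count separate loci or genes. The median log2 fold change of the 66 regions was 0.03 and 0.05 for IFN in WT and in USP18-/- cells, 0.12 between untreated genotypes and 0.26 between IFN treated genotypes. Over all tested regions, these medians lay between -0.02 and 0.00. The plot of all members shows calls of both directions within BCL2, BCL2A1, PMAIP1, MCL1 and BAK1 when the IFN treated genotypes are compared.

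**Figure D1:**
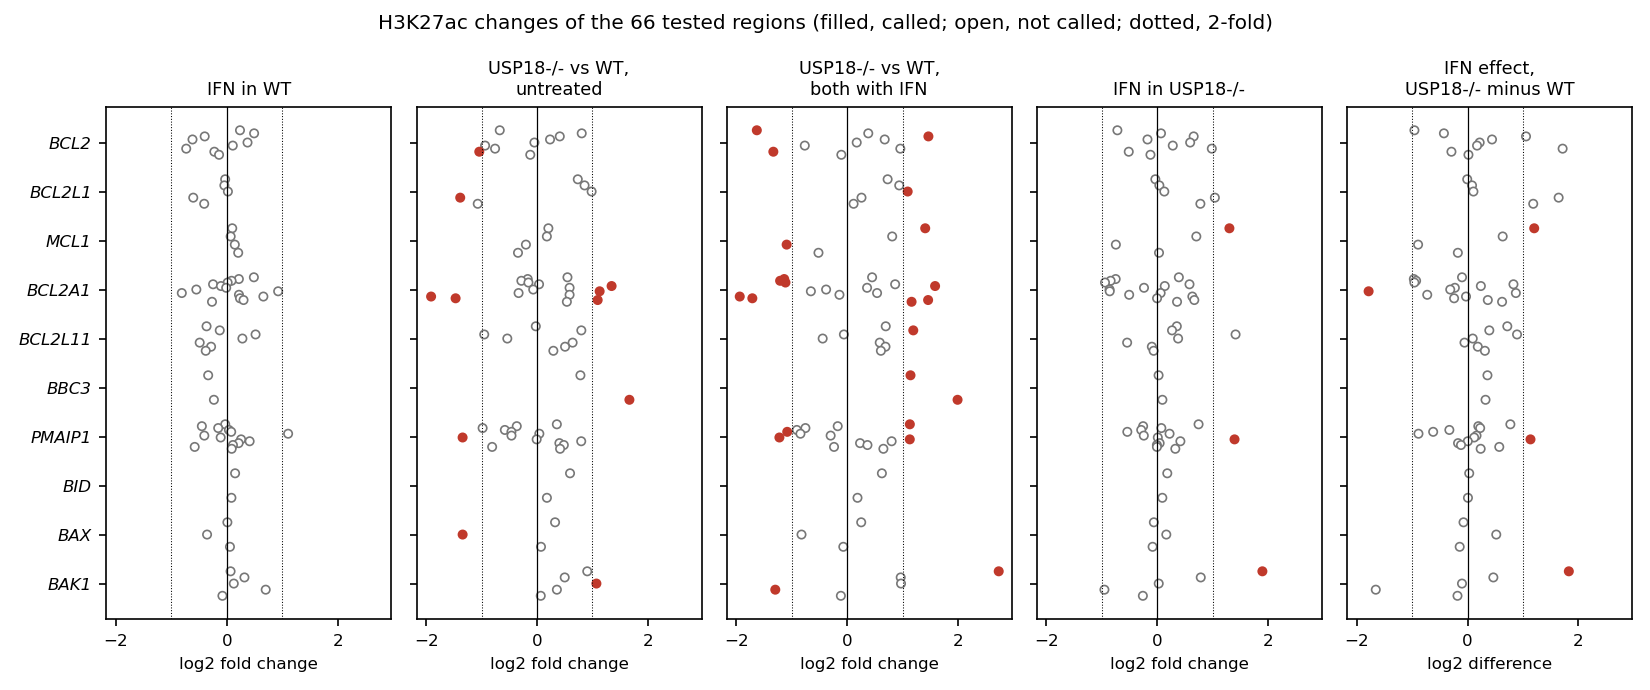
Log2 fold change (horizontal axis) of each of the 66 tested regions by gene (vertical axis) in the 4 comparisons, with the difference of the IFN effects on the right. Filled points were called and dotted lines mark 2-fold; IFN in WT cells has 0 filled points, and BAK1 +1522 has the highest value between IFN treated genotypes, 2.73.

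By the adjusted p alone, without a fold limit, more members passed. Without IFN, 20 exceeded WT in USP18-/- cells and 9 were below it, which is 30.3% and 13.6% of the members, beside 16.9% and 16.8% of all regions. Between IFN treated genotypes 23 were higher and 13 lower, or 34.8% and 19.7%, beside 21.3% and 19.4%. IFN raised 10 and lowered 5 in USP18-/- cells, or 15.2% and 7.58%, beside 13.0% and 11.2%. For the difference of the IFN effects 6 were higher and 5 lower, or 9.09% and 7.58%, beside 6.84% and 5.22% of all regions.

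The members were also counted by distance to the TSS. Of the 20 regions within 3000 bp, 0 were called between untreated genotypes, beside 7.28% higher and 4.45% lower of all tested regions within that distance. Between IFN treated genotypes 6 of the 20 were higher and 1 lower in USP18-/- cells, beside 14.6% and 5.81% of all such regions. By the adjusted p alone, 12 of the 20 were higher and 1 lower between untreated genotypes, beside 37.0% and 9.68% of all such regions. With IFN in both genotypes, 15 were higher and 1 lower, or 75% and 5%, beside 40.7% and 12.3%. Regions near a TSS that passed were thus more often higher than lower in general. Their median log2 fold change was 0.39 between untreated and 0.77 between IFN treated genotypes, beside 0.30 and 0.34 for all tested regions within 3000 bp. Members farther away had medians of -0.11 and -0.13, beside -0.14 and -0.13 for all regions at that range. When only TSS-proximal regions set the scale, which was tried after the data had been seen, the calls within 3000 bp between IFN treated genotypes became 2 higher and 1 lower. Over 3000 bp, 6 members were higher and 10 lower between IFN treated genotypes, beside 10.3% and 15.7% of all such regions. With only distal regions setting the scale, these became 7 higher and 5 lower. Calls over all regions were not counted under either scale.

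MCL1, a short-lived protein that restrains BAK1 and BIM, had the highest signal of the family. Its region MCL1 +1022 (chr1:150578216-150579216, in intron or exon sequence of MCL1 depending on the transcript) held 52.5 and 52.6 CPM in untreated WT cells and 59.5 and 52.9 CPM in WT cells with IFN. It held 55.0 and 66.3 CPM in untreated USP18-/- cells, and 144 and 155 CPM in USP18-/- cells with IFN. Both USP18-/- libraries with IFN lay far above the other 6, which spanned 52.5 to 66.3 CPM.

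IFN raised MCL1 +1022 in USP18-/- cells by 1.30 on the log2 scale (SE 0.09, edgeR adjusted p = 1.6e-22). In WT cells the value was 0.10, with an approximate 95% interval from -0.09 to 0.28. The neighboring promoter region MCL1 +22 held 70.1 and 69.9 CPM in untreated WT cells, 78.6 and 68.2 in WT cells with IFN, 79.4 and 78.9 in untreated USP18-/- cells, and 138 and 120 CPM in USP18-/- cells with IFN. Its log2 fold change with IFN in USP18-/- cells was 0.70 (SE 0.09, edgeR adjusted p = 8.9e-11), under the fold limit. The upstream regions MCL1 -13828 and MCL1 -21144 stayed between 0.621 and 2.77 CPM. MCL1 -13828 was called lower between IFN treated genotypes (-1.09, edgeR adjusted p = 0.037), a call lost with DESeq2, without replicate 1 or 2 of WT with IFN (-0.998 and -1.18) and without replicate 1 of USP18-/- with IFN (-0.75).

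BCL2, the founding restraining member, went the other way at part of its locus. The region over coding sequence, BCL2 +1127 (chr18:63317753-63318753), held 28.8 and 32.4 CPM in untreated WT cells, 37.3 and 35.0 in WT cells with IFN, 18.9 and 19.6 in untreated USP18-/- cells, and 13.5 and 9.76 CPM in USP18-/- cells with IFN. All 4 USP18-/- libraries lay below all 4 WT libraries. Between IFN treated genotypes it was lower by a log2 fold change of -1.63 (SE 0.14, edgeR adjusted p = 2.4e-18), and between untreated genotypes the value was -0.67 (edgeR adjusted p = 1.1e-05), under the fold limit.

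Upstream of the gene, BCL2 -3032 held 18.6 and 20.6 CPM in untreated WT cells and 11.6 and 7.31 CPM in untreated USP18-/- cells. Its log2 fold change was -1.04 (SE 0.16, edgeR adjusted p = 1.2e-07), which became -0.97 without replicate 2 of untreated WT and -0.76 without replicate 2 of untreated USP18-/- cells, both under the fold limit. It was -0.88 when only distal regions set the scale, also under that limit. With IFN in both genotypes the same region held 16.6 and 16.9 against 7.01 and 6.29 CPM (-1.33, edgeR adjusted p = 5.5e-10). The region nearest the TSS, BCL2 -831, differed little, with 32.0 to 41.8 CPM over all 8 libraries and a log2 fold change of -0.11 between IFN treated genotypes (approximate 95% interval -0.33 to 0.12). In an intron, BCL2 +17801 was low throughout and was called higher in USP18-/- cells with IFN, at 4.08 and 4.88 against 1.39 and 1.85 CPM (1.47, edgeR adjusted p = 5.8e-05).

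BCL2L1 encodes BCL-xL and differed by genotype and not detectably with IFN. Its TSS region, BCL2L1 +42, held 12.6 and 9.44 CPM in untreated WT cells, 9.32 and 12.9 in WT cells with IFN, 20.2 and 23.3 in untreated USP18-/- cells, and 22.4 and 24.97 CPM in USP18-/- cells with IFN. The 4 USP18-/- libraries lay above the 4 WT libraries without overlap. The log2 fold change was 0.98 between untreated genotypes (edgeR adjusted p = 1.4e-07) and 1.09 between IFN treated genotypes (edgeR adjusted p = 3.5e-09). The second was 0.87 without replicate 1 of WT with IFN, 0.81 under scaling by the sum of counts and 0.74 when proximal regions set the scale, each under the fold limit. For IFN in USP18-/- cells the value was 0.13, with an approximate 95% interval from -0.15 to 0.40. The overlapping window BCL2L1 +333 and the adjacent BCL2L1 +152 gave 0.94 and 0.73 between IFN treated genotypes. The weak upstream region BCL2L1 -6643 was called lower in untreated USP18-/- cells, at 0.698 and 0.577 against 1.76 and 1.63 CPM (-1.39, edgeR adjusted p = 0.022). Leaving out replicate 1 or 2 of untreated WT (-1.34 and -1.44) or replicate 1 or 2 of untreated USP18-/- cells (-1.53 and -1.26) ended that call.

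BCL2A1, a restraining member found mainly in blood cells, had the most regions within the distance limit and split by position. Just upstream, BCL2A1 -7596 held 11.98 and 11.7 CPM in untreated WT cells, 9.51 and 10.2 in WT cells with IFN, 17.6 and 16.7 in untreated USP18-/- cells, and 21.5 and 22.5 CPM in USP18-/- cells with IFN. Its log2 fold change between IFN treated genotypes was 1.16 (SE 0.15, edgeR adjusted p = 3.4e-10), and 0.88 under scaling by the sum of counts. BCL2A1 +8882, in an intron of the gene, held 3.72 and 3.36, then 3.27 and 3.28 CPM in WT cells without and with IFN, and 10.6 and 7.31, then 9.85 and 9.86 CPM in USP18-/- cells. It was higher in USP18-/- cells both untreated (1.34, edgeR adjusted p = 7.5e-07) and with IFN (1.59, edgeR adjusted p = 7.1e-09).

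BCL2A1 -6315, which holds the NF-κB site printed above 6 bp from its center, gave 2.89 and 5.17, then 4.95 and 5.13 CPM in WT cells without and with IFN, and 8.64 and 8.85, then 13.0 and 14.8 CPM in USP18-/- cells. Its log2 fold change was 1.09 between untreated genotypes, 0.75 without replicate 1 of untreated WT, and 1.46 between IFN treated genotypes (edgeR adjusted p = 1.3e-09). Farther upstream the sign was the opposite. BCL2A1 -39132 held 1.05 and 1.25 CPM in untreated USP18-/- cells against 3.82 and 4.81 CPM in untreated WT cells (-1.91, edgeR adjusted p = 9.3e-07), and with IFN the values were 1.78 and 1.78 against 6.94 and 6.77 CPM. BCL2A1 -39914, whose window overlaps that of BCL2A1 -39132 and is not separate from it, held 1.92 and 1.83 against 5.06 and 5.35 CPM before IFN (-1.47, edgeR adjusted p = 1.4e-05).

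Downstream of BCL2A1, the 3 regions from +16455 to +18790 differed only between the IFN treated genotypes by the rule for calls. The windows BCL2A1 +16455 and BCL2A1 +16980 overlap, so they are not separate. When only distal regions set the scale, BCL2A1 +16455 gave -0.95 and BCL2A1 +18790 gave -0.93, both under the fold limit. BCL2A1 +16980 held 9.19 and 11.1, then 10.9 and 10.7 CPM in WT cells without and with IFN, and 9.25 and 7.41, then 4.53 and 4.79 CPM in USP18-/- cells. Its log2 fold change was -1.21 between IFN treated genotypes (edgeR adjusted p = 3.9e-07), and -0.84 for IFN in USP18-/- cells (edgeR adjusted p = 8.8e-04), under the fold limit. BCL2A1 +37 at the TSS was weak, with 2.87 to 5.77 CPM over the libraries, and passed no call. BCL2A1 -18584, at 0.826 to 2.36 CPM, was called higher between untreated genotypes (1.13, edgeR adjusted p = 0.040), a call lost with DESeq2, without replicate 1 or 2 of untreated WT (1.07 and 1.20) and without replicate 1 of untreated USP18-/- cells (0.72).

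**Figure D2:**
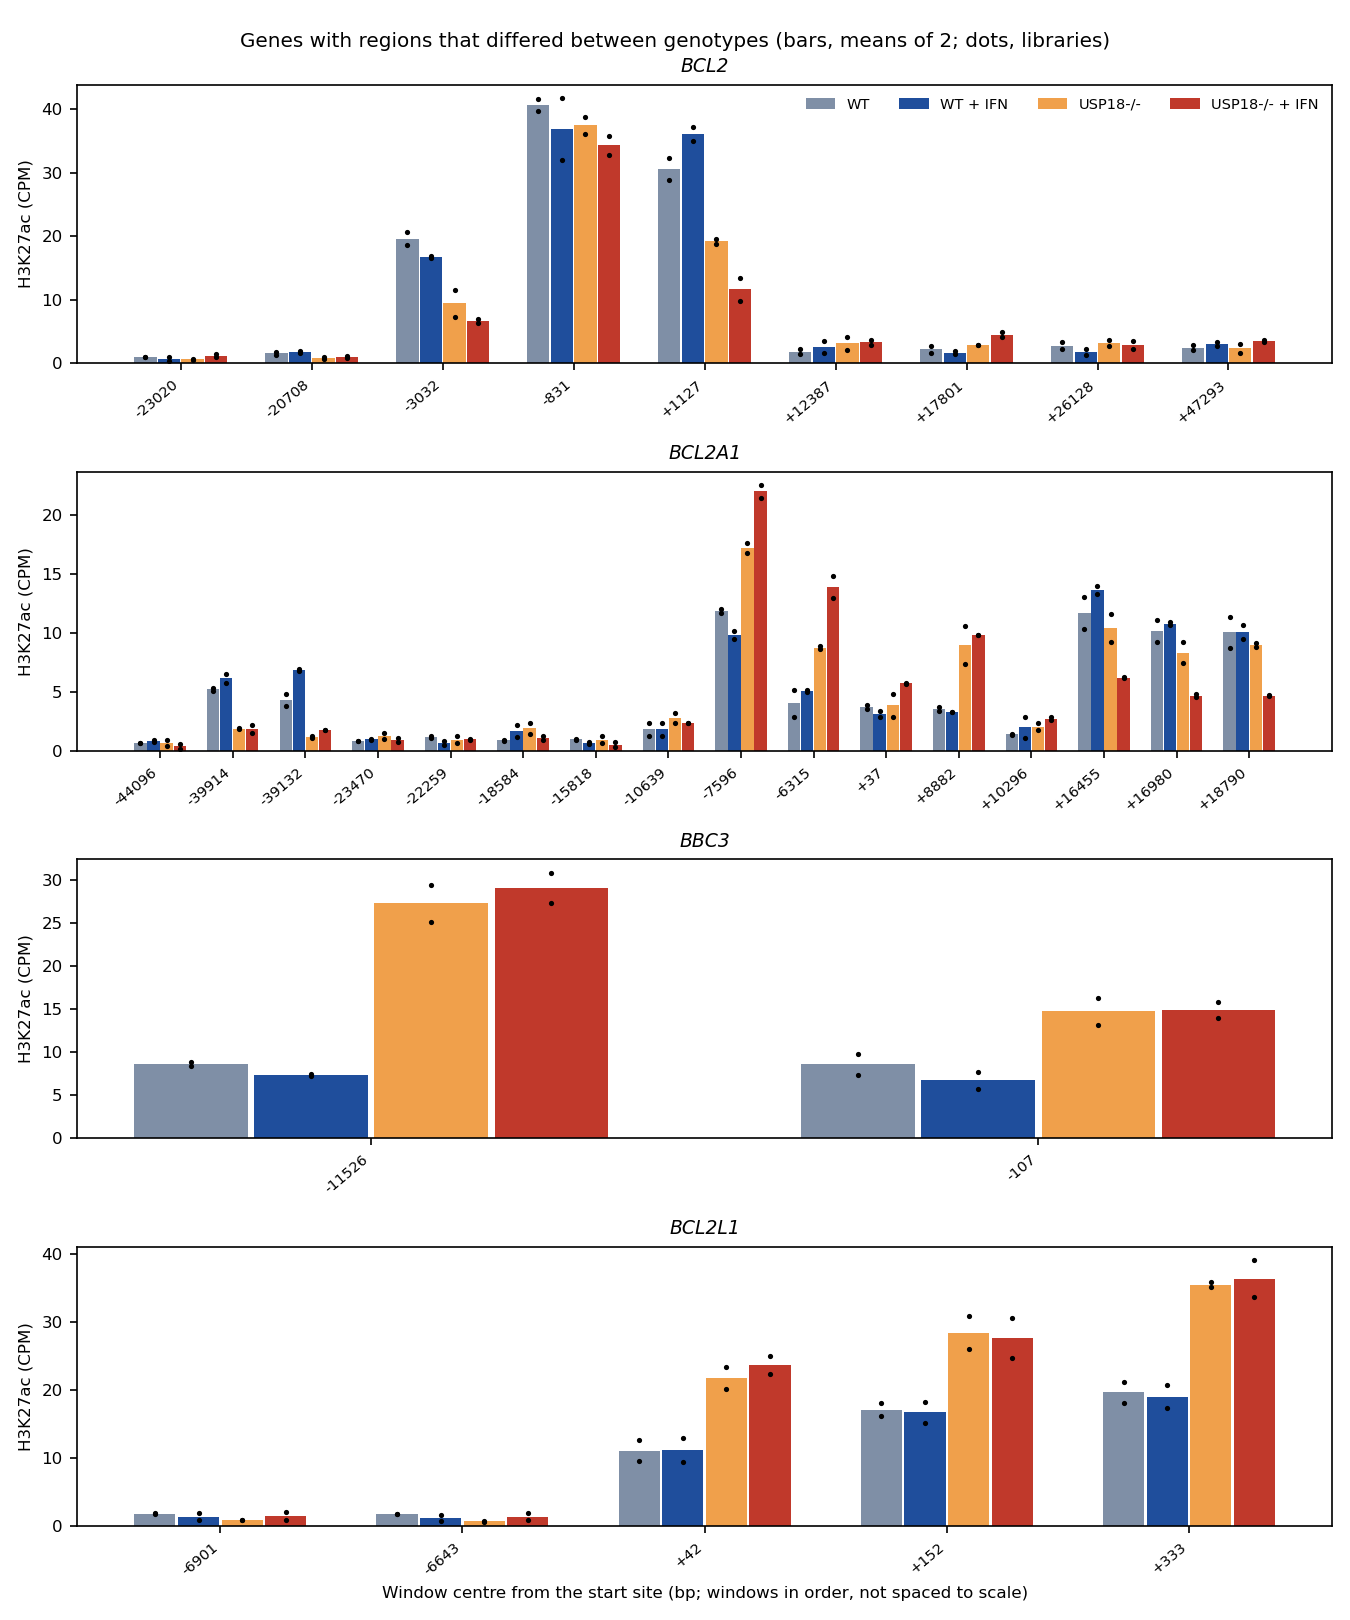
H3K27ac in CPM (vertical axes) at each region of BCL2, BCL2A1, BBC3 and BCL2L1, ordered by distance from the TSS in bp (horizontal axes); bars are means of 2 libraries and dots are the libraries, colored by group. BCL2 +1127 has a mean of 36.1 CPM in WT cells with IFN and 11.6 CPM in USP18-/- cells with IFN, while BBC3 -11526 stands at 25.1 to 30.8 CPM in USP18-/- cells and at 7.18 to 8.80 CPM in WT cells.

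Among the BH3-only genes, BBC3, which encodes PUMA and is best known as a target of p53, had the largest differences between genotypes. BBC3 -11526 (chr19:47243792-47244792, over an exon of the long noncoding gene ENSG00000289915) held 8.37 and 8.80 CPM in untreated WT cells, 7.43 and 7.18 in WT cells with IFN, 29.4 and 25.1 in untreated USP18-/- cells, and 30.8 and 27.3 CPM in USP18-/- cells with IFN. Every USP18-/- library stood far above every WT library. The log2 fold change was 1.67 between untreated genotypes (SE 0.15, edgeR adjusted p = 2.8e-16) and 1.99 between IFN treated genotypes (SE 0.15, edgeR adjusted p = 5.3e-20). IFN in USP18-/- cells gave 0.09, with an approximate 95% interval from -0.16 to 0.34. Its CHOP-ATF4 match, an element read by factors of the integrated stress response, was centered 20 bp from the middle of the window.

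The TSS region BBC3 -107 held 9.81 and 7.35, then 7.73 and 5.74 CPM in WT cells without and with IFN, and 13.2 and 16.3, then 15.8 and 14.0 CPM in USP18-/- cells. Between IFN treated genotypes it was higher by 1.14 (edgeR adjusted p = 1.3e-07), with 0.95 without replicate 2 of WT with IFN, 0.86 under scaling by the sum of counts and 0.79 when proximal regions set the scale. Both tested regions of BBC3 were thus higher in USP18-/- cells with IFN.

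BCL2L11 encodes BIM, which binds all restraining members. At its TSS, BCL2L11 -51 held 16.4 and 14.0, then 12.6 and 10.7 CPM in WT cells without and with IFN, and 18.2 and 19.0, then 18.4 and 17.1 CPM in USP18-/- cells. The log2 fold change between IFN treated genotypes was 0.61 (edgeR adjusted p = 6.1e-04), under the fold limit. In an intron, BCL2L11 +1649 held 9.51 and 8.21 CPM in WT cells with IFN and 19.3 and 21.2 CPM in USP18-/- cells with IFN. It was called higher (1.19, SE 0.16, edgeR adjusted p = 7.9e-10), and its value was 0.91 under scaling by the sum of counts and 0.84 when proximal regions set the scale. The 4 regions of BCL2L11 from +9179 outward stayed between 0.192 and 2.36 CPM, with 0 calls.

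PMAIP1 encodes NOXA, which opposes MCL1. PMAIP1 -14074 (chr18:59885386-59886386, intergenic) held 4.96 and 6.44 CPM in untreated WT cells, 6.94 and 6.77 in WT cells with IFN, 6.55 and 4.81 in untreated USP18-/- cells, and 15.5 and 14.5 CPM in USP18-/- cells with IFN. The 6 other libraries spanned 4.81 to 6.94 CPM, so that only the last pair stood apart. IFN raised it in USP18-/- cells by 1.39 (SE 0.19, edgeR adjusted p = 1.5e-09), while the value in WT cells was 0.26 with an approximate 95% interval from -0.16 to 0.68. No ISRE core was found in this window.

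Closer to the gene, PMAIP1 +1013 in an intron held 23.2 to 24.7 CPM over the 4 WT libraries, and 29.2 and 32.5, then 51.7 and 51.5 CPM in USP18-/- cells without and with IFN. Between IFN treated genotypes it was higher by 1.13 (SE 0.11, edgeR adjusted p = 1.1e-14), with 0.85 under scaling by the sum of counts and 0.78 when proximal regions set the scale. For IFN in USP18-/- cells the value was 0.74 (edgeR adjusted p = 2.0e-08), under the fold limit. The TSS region PMAIP1 -82 held 33.5 and 37.1 CPM in untreated USP18-/- cells and 44.1 and 44.1 CPM with IFN, a log2 fold change of 0.32 (edgeR adjusted p = 0.024) also under that limit.

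Downstream of PMAIP1, PMAIP1 +7297 and PMAIP1 +21543 were called lower in USP18-/- cells. PMAIP1 +7297 held 15.9 and 12.5, then 13.3 and 12.9 CPM in WT cells without and with IFN, and 6.20 and 4.91, then 6.30 and 4.88 CPM in USP18-/- cells. The log2 fold change was -1.34 between untreated genotypes (edgeR adjusted p = 6.7e-09) and -1.22 between IFN treated genotypes (edgeR adjusted p = 6.9e-08). PMAIP1 +17679 and PMAIP1 +18704 gave -0.98 and -0.58 between untreated genotypes, and PMAIP1 +21543 was lower between IFN treated genotypes (-1.08, edgeR adjusted p = 7.5e-04). When only distal regions set the scale, PMAIP1 +21543 gave -0.90, under the fold limit.

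BID, which carries the death receptor signal to the mitochondria after cleavage by caspase-8, passed no call. Its TSS region BID +33 held 9.71 and 9.08, then 9.91 and 9.95 CPM in WT cells without and with IFN, and 10.8 and 10.4, then 13.0 and 9.58 CPM in USP18-/- cells. The approximate 95% interval of the log2 fold change for IFN in USP18-/- cells ran from -0.25 to 0.43. BID +2309 held 4.03 and 5.54, then 5.45 and 5.23 CPM in WT cells, and 6.81 and 7.80, then 9.05 and 7.42 CPM in USP18-/- cells without and with IFN. At BID +2309 all 4 USP18-/- libraries thus lay above all 4 WT libraries, without a call. The share of all regions that separated in this way was not counted, and regions near a TSS were more often higher in USP18-/- cells in general. The log2 fold change of BID +2309 with IFN in USP18-/- cells was 0.18 (approximate 95% interval -0.21 to 0.57), and its ISRE core lay 11 bp from the center.

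The effectors BAX and BAK1 differed from each other. BAX -73 at the TSS held 19.6 and 18.4, then 20.4 and 19.1 CPM in WT cells without and with IFN, and 19.5 and 20.5, then 21.04 and 16.5 CPM in USP18-/- cells. All 4 groups overlapped, and the log2 fold change between IFN treated genotypes was -0.07, with an approximate 95% interval from -0.34 to 0.20. The window of BAX +354 overlaps that of BAX -73. BAX +354 held 20.97 and 19.1, then 20.02 and 20.2 CPM in WT cells without and with IFN. It held 23.2 and 26.9, then 23.4 and 24.5 CPM in USP18-/- cells. At BAX +354 all 4 USP18-/- libraries thus lay above all 4 WT libraries, without a call. How many of all regions separated in this way was not counted. All tested regions within 3000 bp had median log2 fold changes of 0.30 between untreated and 0.34 between IFN treated genotypes. The weak region BAX -10177, within DHDH, was called lower in untreated USP18-/- cells (0.611 and 0.866 against 1.55 and 2.18 CPM, -1.34, edgeR adjusted p = 0.018). That call was lost without replicate 2 of untreated WT (-1.07) and without replicate 1 of untreated USP18-/- cells (-1.11).

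BAK1 had the largest change of the family. BAK1 +1522 (chr6:33578271-33579271, in an intron of BAK1 and in one of the pseudogene GGNBP1 on the other strand) held 11.1 and 11.5 CPM in untreated WT cells, 12.9 and 10.8 in WT cells with IFN, 17.8 and 24.7 in untreated USP18-/- cells, and 73.1 and 84.5 CPM in USP18-/- cells with IFN. Behind these values stood 106.5 and 126.5, 129.5 and 104.5, 204 and 256.5, and 823.5 and 899.5 tags. The untreated USP18-/- libraries already lay above the WT libraries, and both with IFN lay above all others. IFN raised the region in USP18-/- cells by 1.89 on the log2 scale (SE 0.12, edgeR adjusted p = 2.6e-25). Between IFN treated genotypes the value was 2.73 (SE 0.13, edgeR adjusted p = 1.0e-32), and between untreated genotypes 0.91 (edgeR adjusted p = 2.2e-07), under the fold limit. In WT cells IFN gave 0.07, with an approximate 95% interval from -0.25 to 0.38. The ISRE core printed above was centered 21 bp from the middle of the window, and the window was merged from 1 ATAC-seq peak, while 37 of the 68 members were merged from 8.

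BAK1 +16 at the TSS held 16.8 and 16.5, then 20.1 and 21.4 CPM in WT cells without and with IFN, and 20.1 and 27.2, then 40.7 and 40.5 CPM in USP18-/- cells, a log2 fold change with IFN of 0.78 in USP18-/- cells (edgeR adjusted p = 1.1e-07) that stayed under the fold limit. BAK1 +3042 held 23.7 and 23.9, then 25.1 and 26.8 CPM in WT cells, and 51.0 and 48.9, then 52.0 and 49.6 CPM in USP18-/- cells. It was higher in untreated USP18-/- cells by 1.07 (SE 0.11, edgeR adjusted p = 1.2e-13), with 0.93 under scaling by the sum of counts, and IFN in USP18-/- cells gave 0.02 (approximate 95% interval -0.18 to 0.22). BAK1 +8938 stayed between 22.6 and 30.6 CPM over all 8 libraries. BAK1 +44983, at 0.710 to 2.38 CPM, was called lower between IFN treated genotypes (-1.30, edgeR adjusted p = 0.022), and that call was lost with DESeq2 and without replicate 1 of WT with IFN (-0.75), replicate 1 of USP18-/- with IFN (-1.29) or replicate 2 of USP18-/- with IFN (-1.33).

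**Figure D3:**
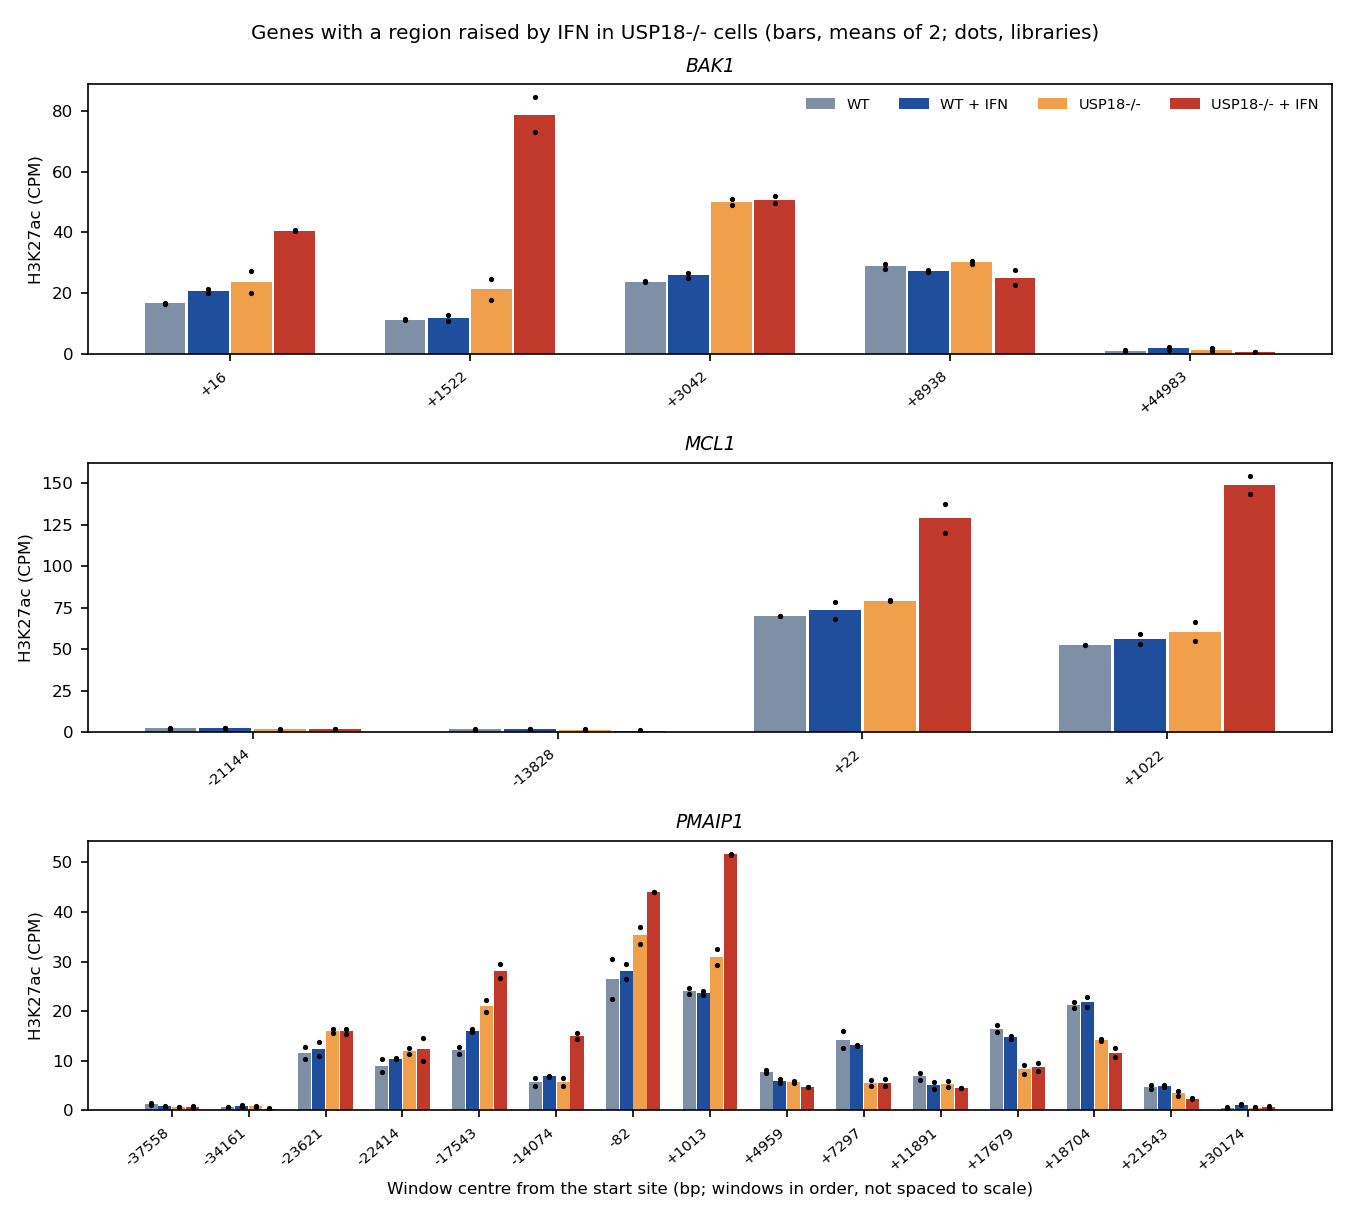
H3K27ac in CPM (vertical axes) at each region of BAK1, MCL1 and PMAIP1, ordered by distance from the TSS in bp (horizontal axes); bars are means of 2 libraries and dots are the libraries, colored by group. USP18-/- cells with IFN stand out at BAK1 +1522 (73.1 and 84.5 CPM), MCL1 +1022 (144 and 155 CPM) and PMAIP1 -14074 (15.5 and 14.5 CPM), while BAK1 +3042 separates the genotypes with and without IFN.

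Levels at the region nearest each TSS can be ranked. In untreated WT cells the means were 70.0 CPM for MCL1, 40.7 for BCL2, 26.5 for PMAIP1, 19.0 for BAX, 16.7 for BAK1, 15.2 for BCL2L11, 11.02 for BCL2L1, 9.39 for BID, 8.58 for BBC3 and 3.71 CPM for BCL2A1. The libraries of BCL2L1 and BID overlapped, as did those of BID and BBC3, and those of BAK1 (lowest 16.5 CPM) and BCL2L11 (highest 16.4 CPM) nearly met, while the remaining neighbors stood apart. In USP18-/- cells with IFN the order was MCL1 at 129, PMAIP1 at 44.1, BAK1 at 40.6, BCL2 at 34.35, BCL2L1 at 23.7, BAX at 18.8, BCL2L11 at 17.7, BBC3 at 14.9, BID at 11.3 and BCL2A1 at 5.70 CPM. Among neighbors in that order, only the libraries of BAX and BCL2L11 overlapped. PMAIP1 and BAK1 thus stood above BCL2 in that group and below it in untreated WT cells.

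**Figure D4:**
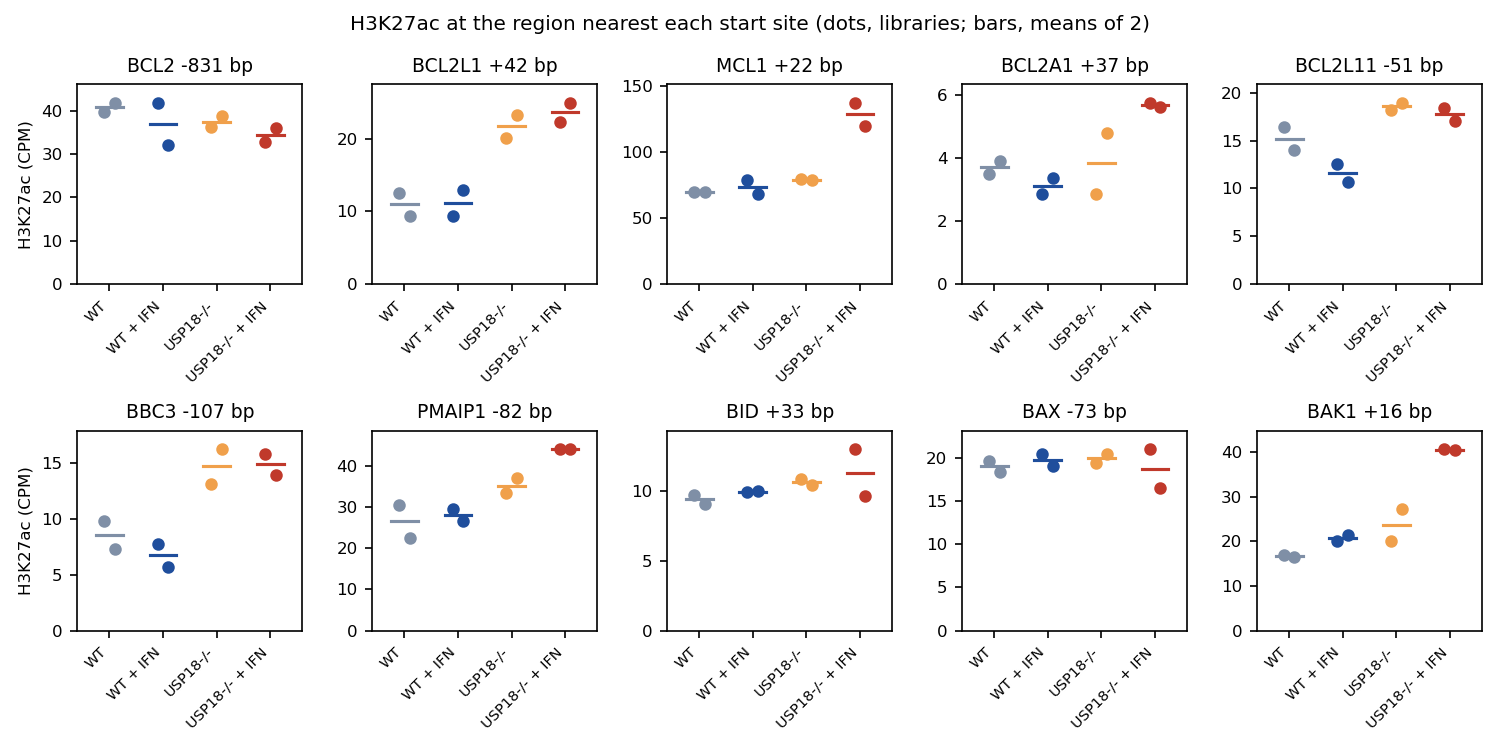
H3K27ac in CPM (vertical axes, each starting at 0) at the region nearest the TSS of each of the 10 genes in the 4 groups (horizontal axes); dots are the 2 libraries and bars their mean. MCL1, PMAIP1 and BAK1 are highest in USP18-/- cells with IFN, BCL2L1 and BBC3 are higher in both USP18-/- groups, and BAX stays at 16.5 to 21.04 CPM.

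The difference between the IFN effects of the genotypes was tested directly. It was 1.83 on the log2 scale for BAK1 +1522 (SE 0.20, edgeR adjusted p = 7.6e-12) and 1.20 for MCL1 +1022 (SE 0.13, edgeR adjusted p = 7.5e-12). For PMAIP1 -14074 it was 1.14 (SE 0.29, edgeR adjusted p = 0.0026), which became 0.93 without replicate 2 of untreated WT and 0.94 without replicate 2 of untreated USP18-/- cells, both under the fold limit. BCL2A1 -18584 was lower (-1.78, SE 0.63, edgeR adjusted p = 0.047) on 7.5 to 27 tags a library, and that call was lost without replicate 1 or 2 of untreated WT (-1.72 and -1.86) or without replicate 1 of WT with IFN (-1.23), of untreated USP18-/- cells (-1.41) or of USP18-/- cells with IFN (-1.60). Of the regions that passed the adjusted p alone, BCL2 +1127 gave -0.96, BCL2A1 +16455 gave -0.97, PMAIP1 +1013 gave 0.77 and MCL1 +22 gave 0.63. Under scaling by the sum of counts the calls were 3 higher and 5 lower, and under scaling by all mapped tags, chosen after seeing the data, 3 higher and 4 lower. The median difference over all tested regions was -0.13 and -0.06 under these scalings, and calls over all regions were not counted.

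**Figure D5:**
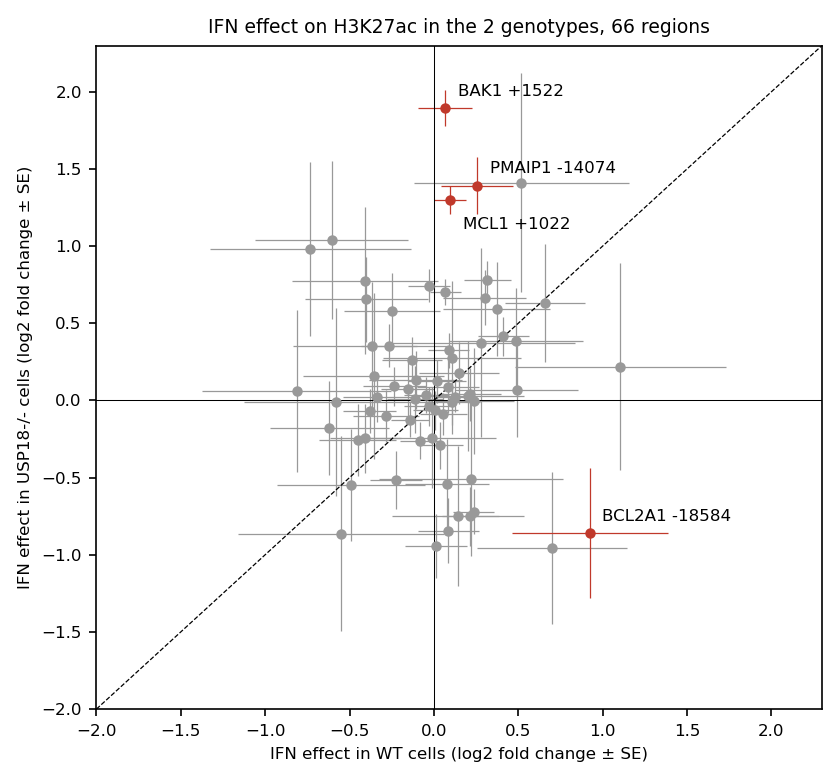
Log2 fold change with IFN in WT cells (horizontal axis) against that in USP18-/- cells (vertical axis) for the 66 tested regions, with SE bars; the dashed line marks equal effects and red points differed between genotypes. BAK1 +1522 lies at 0.07 and 1.89, MCL1 +1022 at 0.10 and 1.30, PMAIP1 -14074 at 0.26 and 1.39, and BCL2A1 -18584 at 0.92 and -0.86.

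Other genes of the mitochondrial death pathway were counted over a list of 23 genes, of which 20 had a region within 50000 bp, giving 136 regions and 116 tested. IFN in WT cells gave 0 higher and 1 lower region, BIK +483, of a further BH3-only gene (-1.22, edgeR adjusted p = 0.037). USP18-/- cells were higher in 10 and lower in 1 when untreated, which is 8.62% and 0.862% of the list beside 5.66% and 10.8% of all regions. With IFN in both genotypes they were higher in 22 and lower in 11, or 19.0% and 9.48% beside 11.3% and 13.4%. IFN in USP18-/- cells raised 9 and lowered 8, or 7.76% and 6.90% beside 7.14% and 4.28%, so that the raised share was near the background. The IFN effect was greater in USP18-/- cells in 8 and smaller in 4, or 6.90% and 3.45% beside 4.66% and 2.51%. Among those raised were XIAP +450 of the caspase inhibitor XIAP, from a mean of 27.4 to 57.5 CPM (1.07, edgeR adjusted p = 2.3e-13), and APAF1 +46243 of the apoptosome scaffold APAF1, from 2.50 to 15.3 CPM on average (2.62, edgeR adjusted p = 1.4e-17). In the other direction, BCL2L13 -16875 went from a mean of 42.2 to 15.9 CPM with IFN in USP18-/- cells. These regions are examples and do not stand for the list.

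The profile of each TSS region over the 8 libraries was compared with the region nearest the TSS of the 17 genes of that list for which it was tested, at whatever distance up to 50000 bp it lay. MCL1 was most like BIRC2, the gene of an inhibitor of apoptosis protein (Pearson r = 0.96 on log2 CPM), and so were PMAIP1 (0.94) and BAK1 (0.91). BCL2L1 was most like VDAC2 (0.93), the gene of a mitochondrial channel that binds BAK1, and BBC3 was most like CASP9 (0.92). BCL2 and BAX had no close match, with highest values of 0.61 for both. The points share libraries and scaling, and these values are given as a description.

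Motif matches were counted in the 66 tested members. An ISRE core was found in 12 (18.2%), beside 17.1% of all tested regions, and an NF-κB site in 10 (15.2%), beside 13.9%. A CHOP-ATF4 element was found in 3 (4.55%), beside 5.72%, and an AP-1 site in 14 (21.2%), beside 31.0%. Both strands were searched in each window, and overlapping matches of different motifs were counted for each motif. The ISRE core lay in 2 of the 3 regions raised by IFN in USP18-/- cells, and it also lay in 10 others that passed no call for IFN, among them PMAIP1 -82, PMAIP1 -17543, BCL2A1 +37 and BID +2309. A match is a run of letters and does not show that a factor was bound.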

How the data were processed

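Per the file headers and the methods of the study, the authors mapped reads to hg38 with Bowtie2 and counted raw H3K27ac tags with HOMER, using 1000 bp windows centered on merged ATAC-seq peaks. The deposited values are thus expected counts, with fractional tags and no normalization. Of all values, 52.2% were whole. Fractions were rounded, an exact 0.5 upward. Every value column was matched to a library. Libraries of input and ATAC-seq DNA were not used here.

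edgeR 4.0.16 (R 4.3.3) was run on all 8 libraries with TMM scaling and 1 mean per group, on regions with at least 10 counts in 2 libraries. Thresholds were 2-fold and an adjusted p of 0.05. A biological coefficient of variation of 0.0737 was common to all regions. The scripts were tested on simulated data. The smallest library held 9046141 tags in regions, and replicates within a group differed by more than sampling noise (chi-square per region 1.30 to 1.63). Intervals are approximate and come from the SE. Replicates are cultures of a cell line, so p-values measure the spread between these cultures.

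Members and lists were chosen with earlier results of these data known. Named regions were the one nearest each TSS and, per gene and contrast, the called region with the smallest p. The other member regions given with values were chosen after their values were seen. GENCODE 44 gave gene features, and hg38 the sequences. Same-numbered replicates did not deviate together (r from -0.003 to 0.058), so numbers were not taken as pairs.

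Alternatives were DESeq2 1.42.0, sum-of-counts scaling, filters, thresholds, a shorter distance limit, distal regions alone, non-overlapping windows, the 2 groups alone, a replicate block and leaving out each library. Proximal regions alone and scaling by all mapped tags were added after seeing the data.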

Additional observations from a re-analysis of the deposited data

Results flagged for a closer look

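In 4 regions of the family the IFN effect differed between USP18-/- and WT cells by the direct test of that difference. It was greater in 3 and smaller in 1, or 4.55% and 1.52% of the 66 tested members. Over all tested regions these shares were 4.66% and 2.51%, so the family did not exceed the background. BAK1 +1522 differed by 1.83 on the log2 scale, and its values over 16 alternatives ran from 1.57 to 2.08, with the call kept in each. MCL1 +1022 differed by 1.20, with 1.04 to 1.34 over 16 alternatives and the call kept in each. PMAIP1 -14074 differed by 1.14 and kept its call in 14 of 16 alternatives, with 0.93 to 1.35. BCL2A1 -18584 differed by -1.78 and kept its call in 7 of the 14 alternatives that gave an adjusted p. Its signal was 0.826 to 2.36 CPM, and it is a weak region. Groups of 2 libraries were too small for a test of single libraries that stand apart.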

How the results depend on the processing

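Over the 5 comparisons there were 41 calls, of which 22 held under every alternative run and 19 were lost under at least 1. Of the calls for regions named by the rule, 349 of 380 alternative values kept the call, 31 lost it and 0 changed direction. Besides TSS regions, the naming rule takes the called region with the smallest p, which favors a kept call. The 349 of 380 thus do not stand for all calls. By the adjusted p alone, the counts were 29 between untreated genotypes, 36 between IFN treated genotypes, 15 for IFN in USP18-/- cells and 11 for the difference of the IFN effects, and over 4-fold they were 0, 1, 0 and 0. At most 10000 bp from the TSS, which leaves fewer regions, they were 6 and 12 between genotypes and 2 for the difference. Distal regions alone gave 12 (7 higher and 5 lower), 1 and 2 for the last 3 comparisons. Proximal regions alone gave 0 between untreated and 3 between IFN treated genotypes, and 2 for the difference. For the difference, scaling by the sum of counts gave 8 and by all mapped tags 7, against 4. The cause of these last shifts was not tested, but under sum-of-counts scaling the median log2 fold change of all tested regions stood at -0.16 between untreated genotypes, -0.27 between IFN treated genotypes, -0.14 for IFN in USP18-/- cells and -0.13 for the difference. Under it the calls were 2 higher and 8 lower between untreated genotypes, 6 higher and 14 lower between IFN treated genotypes, and 3 higher and 1 lower for IFN in USP18-/- cells. With each library left out in turn, counts ran from 8 to 11, from 21 to 25, from 3 to 5 and from 4 to 6, and without replicate 2 of untreated USP18-/- cells IFN raised 5 regions there. A lone library in a group was assumed to vary like the others. The replicate block gave 11, 23, 3 and 3 calls, and the call it lost was that of BCL2A1 -18584 for the difference. For IFN in WT cells every alternative gave 0. DESeq2 gave no adjusted p to 8 to 26 members. Depth limits the regions under 3 CPM.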
